A study of Mus musculus with 12 samples.

Results

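The CC chemokines described here are 10 small secreted proteins encoded by Ccl2, Ccl3, Ccl4, Ccl5, Ccl6, Ccl7, Ccl8, Ccl9, Ccl11 and Ccl12. They were taken as the rows with these gene names from 2 deposited tables of 23845 genes, one of expected counts and one of TPM (a transcript level corrected for transcript length and scaled to the same total in each library), and all 10 were found. Expression was measured by poly(A) RNA sequencing of brain microglia that had been enriched on Percoll gradients. The mice were C57BL6/J animals 3 to 4 months old, and 1 animal gave 1 library. There were 4 groups of 3 libraries: wild type without injection of lipopolysaccharide (WT), wild type 24 h after lipopolysaccharide (WT-LPS), mice labelled CPEB1 knockout without it (CPEB1-KO) and CPEB1 knockout 24 h after it (CPEB1-KO-LPS). Lipopolysaccharide (LPS) is an outer membrane component of Gram-negative bacteria that activates Toll-like receptor signalling. The dose, the route of injection, the sex of the animals and the construction of the knockout allele could not be read from the labels used here, and no sorting step after the gradient is named.

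CC chemokines are named after a pair of adjacent cysteines near their amino terminus. They bind G protein-coupled receptors of the CCR family on leukocytes and direct these cells along a concentration gradient. Microglia and other macrophages transcribe many of them when NF-kappa B and interferon signalling are active, and in the inflamed brain they are known as signals that draw monocytes and lymphocytes from the blood. CPEB1 binds the cytoplasmic polyadenylation element, a U-rich motif in the 3' untranslated region (UTR) of mRNAs, and controls the length of their poly(A) tails and their translation. Tail length and protein were not measured here, so the values below are levels of poly(A) RNA. Whether tail length affected the capture of transcripts was not tested, and it cannot be told apart from abundance in these values.

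The libraries held 5.02 M to 13.5 M expected counts, which limits the precision for the rare members Ccl7, Ccl8 and Ccl11. Cpeb1 itself was read in all libraries, at 15.5 to 43.3 TPM in WT and 17.6 to 26.4 TPM in CPEB1-KO. With LPS it was at 24.1 to 45.1 TPM in wild type and 24.0 to 40.6 TPM in the knockout. The difference between CPEB1-KO and WT did not pass the test (log2 fold change -0.58 ± 0.31, SE, adjusted p = 0.334 by edgeR's quasi-likelihood test with Benjamini-Hochberg adjustment over all genes). The exons behind these gene-level counts are unknown, and genotypes are those of the labels. The preparations were checked against marker lists. The summed level of 10 microglia markers was 5611 to 6377 TPM in untreated and 966 to 4457 TPM in treated wild type. In the knockout it was 2682 to 4230 TPM untreated and 656 to 2757 TPM treated, and none of the 10 was at 0. The preparations also held RNA of other cells, among them neurons (10 markers, 2017 to 6338 TPM over the 12 libraries) and red blood cells (4 markers matched, the haemoglobin genes among them, 6544 to 66990 TPM). Oligodendrocyte markers (9) summed to 2015 to 7965 TPM, choroid plexus and ependymal markers (7) to 1127 to 9169 TPM and neutrophil markers (8) to 521.5 to 4041 TPM. The neutrophil sum was above the microglia sum in WT-LPS replicate 1 and CPEB1-KO-LPS replicates 1 and 2, and below it elsewhere. CPEB1-KO-LPS replicate 3 stood apart: red blood cell markers summed to 61140 TPM there against 7051 and 11850 TPM in the other libraries of its group, and microglia markers to 2757 against 1133 and 656 TPM. WT-LPS replicate 1 had the lowest sum of microglia markers in its group, 966 TPM against 4457 and 3042. In bulk RNA, a change in the number of cells of a type and a change in RNA per cell cannot be told apart.

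All 10 genes lie on chromosome 11, in a pair of blocks (coordinates of the GENCODE M21 annotation on mm10). The first block, of 81.2 kb from 82035571 to 82116799, holds Ccl2, Ccl7, Ccl11, Ccl12 and Ccl8 in this order, all on the plus strand. The second block, of 138.9 kb from 83525778 to 83664683, holds Ccl5, Ccl9, Ccl6 and Ccl3 on the minus strand and Ccl4 on the plus strand. The blocks are 1409 kb apart. Each gene has 3 exons, apart from Ccl6 and Ccl9 with 4.

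Promoter sequences of 300 bases, from 250 bases before the transcript start to 50 bases after it, were matched for 5 members (RefSeq, GRCm38.p6). The 3 printed next are those in which a searched motif was found, with the motif in capitals. The motifs searched were a kappa B site (GGGNNNNNCC, both strands), an AP-1 site (TGANTCA, both strands), an interferon-stimulated response element (GAAANNGAAA, both strands) and a TATA box (TATAAA, strand of the gene).
Ccl12, chr11:82101595-82101894, plus strand: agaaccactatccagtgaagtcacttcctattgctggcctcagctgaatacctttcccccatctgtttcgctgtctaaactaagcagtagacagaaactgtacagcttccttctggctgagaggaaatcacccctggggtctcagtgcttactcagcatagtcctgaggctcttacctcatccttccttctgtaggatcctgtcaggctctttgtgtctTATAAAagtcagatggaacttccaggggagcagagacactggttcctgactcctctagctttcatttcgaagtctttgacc
Ccl8, chr11:82114935-82115234, plus strand: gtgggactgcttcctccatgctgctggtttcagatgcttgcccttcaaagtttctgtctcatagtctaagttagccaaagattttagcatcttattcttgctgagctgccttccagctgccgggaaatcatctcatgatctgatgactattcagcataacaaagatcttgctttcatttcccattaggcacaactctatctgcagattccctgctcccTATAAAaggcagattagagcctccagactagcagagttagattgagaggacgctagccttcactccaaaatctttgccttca
Ccl9, chr11:83578587-83578886, minus strand: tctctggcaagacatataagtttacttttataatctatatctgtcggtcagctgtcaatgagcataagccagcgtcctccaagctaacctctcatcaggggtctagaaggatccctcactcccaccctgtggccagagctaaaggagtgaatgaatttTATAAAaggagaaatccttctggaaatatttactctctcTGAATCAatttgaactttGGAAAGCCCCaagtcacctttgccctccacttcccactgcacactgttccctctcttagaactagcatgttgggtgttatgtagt
The promoters of Ccl12 and Ccl8 hold a TATA box that begins 31 and 32 bases before the start. That of Ccl9 holds TATAAA at 92 bases, TGAATCA (AP-1) at 53 bases and GGAAAGCCCC (kappa B, on the other strand) at 35 bases before the start. None of the 4 motifs was found in the windows of Ccl3 and Ccl6. Of 32851 promoter windows of the same length, 50.8% held the kappa B letters, 7.81% AP-1, 3.44% the interferon element and 8.32% TATAAA.

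Because the study altered CPEB1, the 3' UTRs of the 10 transcripts were searched for the letters of its element, UUUUAU or UUUUAAU (written with T below, strand of the mRNA, motif in capitals). Copies were found in 6 members and are shown here with 8 bases on either side, for Ccl9 only the last of 5 copies of UUUUAU; Ccl9 also holds 1 copy of UUUUAAU.
Ccl3, first copy: acttgaaaTTTTATttaattta
Ccl3, second copy: gtaatttaTTTTATtgtcatac
Ccl7, first copy: attaatatTTTTATttaattag
Ccl7, second copy: tgcaaagaTTTTATttaaaaac
Ccl6, first copy: gaccttgtTTTTATagatattt
Ccl6, second copy: tgcctgacTTTTATctgcggaa
Ccl9, last copy of UUUUAU: ctccccctTTTTATaacccagt
Ccl11, single copy: agaatgttTTTTATtagaatat
Ccl12, single copy, UUUUAAU: agagatgtTTTTAATaatttaaa
The copies in Ccl9, Ccl11 and Ccl12 end 37, 43 and 77 bases before the 3' end of the UTR. Over 17808 genes, 14.1% had UUUUAU and 5.11% UUUUAAU in the last 100 bases, and 66.8% had AAUAAA, the letters of the poly(A) signal. Ccl11 held 1 copy of AAUAAA in its last 100 bases, as did Ccl3 and Ccl6. Ccl9 held 0 copies there, and Ccl7 and Ccl12 held 0 in the whole UTR. No copy of UUUUAU or UUUUAAU was found in Ccl2, Ccl4, Ccl5 and Ccl8. Whole UTRs differ in length, from 165 bases in Ccl8 to 2465 in Ccl9, and among genes with a UTR of like length UUUUAU is present in 29.9% (for Ccl3), 31.5% (Ccl7), 40.4% (Ccl11), 52.2% (Ccl6) and 82.0% (Ccl9), and UUUUAAU in 4.65% (Ccl12) and 50.5% (Ccl9). In the first copy of Ccl3 and both copies of Ccl7 the letters run on into AUUUA, the pentamer of AU-rich elements that mark short-lived mRNAs. That pentamer occurred 5 times each in Ccl3, Ccl9, Ccl11 and Ccl12 and was not found in Ccl5 and Ccl8. Among genes with a UTR of like length, 1 copy or more is present in 45.1% (for Ccl3), 94.1% (Ccl9), 59.3% (Ccl11) and 21.2% (Ccl12). The share of genes with 5 copies or more was not counted. A longer AU-rich motif, UUAUUUAUU, was not found in any of the 10. It is present in 1.28% (for Ccl12) to 11.2% (Ccl9) of genes with a UTR of like length.

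Without LPS, Ccl3, Ccl6, Ccl12 and Ccl5 were the most abundant of the 10 in WT, with means of 73.1 ± 14.2, 60.9 ± 13.7, 50.8 ± 10.7 and 45.7 ± 4.73 TPM (SD, n = 3). The ranges of these neighbours over the 3 libraries overlapped. Ccl4 and Ccl9 followed at 28.6 ± 7.04 and 22.4 ± 1.90 TPM, and Ccl2 at 8.98 ± 3.80 TPM lay below both without overlap. Ccl8, Ccl7 and Ccl11 were rare, at 2.02 ± 1.03, 0.900 ± 0.0557 and 0.260 ± 0.301 TPM. After LPS, Ccl3 ranked 31 of 23845 genes by mean TPM in WT-LPS, Ccl4 82 and Ccl5 114. In CPEB1-KO-LPS they ranked 96, 145 and 131. The plot of levels by library shows the 10 members side by side.

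**Figure D1:**
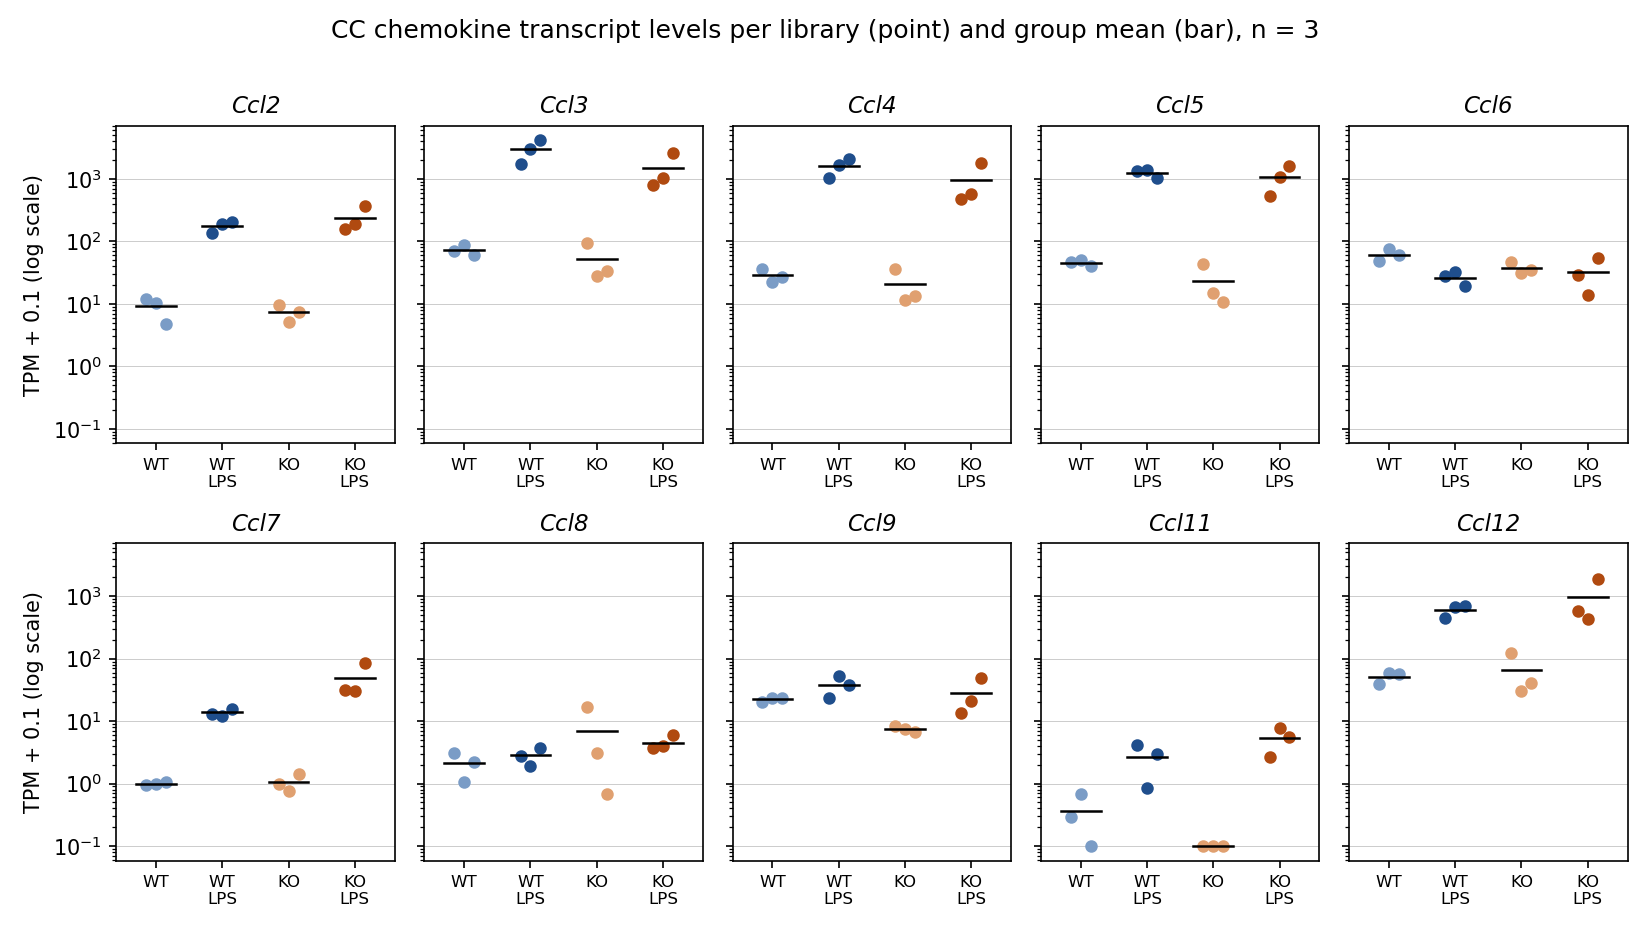
Level of each CC chemokine in TPM plus 0.1 on a log axis, 1 point per library and a bar at the mean of the 3 libraries of a group; KO stands for CPEB1-KO. In Ccl2, Ccl3, Ccl4, Ccl5, Ccl7 and Ccl12 every LPS library lies above every untreated library of its genotype, while Ccl6 lies lower in WT-LPS than in WT and the 3 CPEB1-KO points of Ccl11 are at 0 TPM.

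The first block holds the monocyte chemoattractants Ccl2, Ccl7 and Ccl12, which act mainly through CCR2, the eosinophil chemoattractant Ccl11, and Ccl8. Ccl2 (82035571 to 82037453), the best known ligand of CCR2 and a signal for the exit of monocytes from bone marrow, stood at 12.1, 10.2 and 4.73 TPM in WT and at 135, 192 and 204 TPM in WT-LPS. In CPEB1-KO it stood at 9.57, 5.09 and 7.39 TPM, and in CPEB1-KO-LPS at 159, 190.0 and 369 TPM. Treated and untreated libraries did not overlap in either genotype, while the genotypes overlapped both without and with LPS. Ccl2 rose by 3.92 ± 0.48 on the log2 scale (SE) in wild type, a 15.2-fold change (edgeR quasi-likelihood test, Benjamini-Hochberg adjusted p = 0.000216). It rose by 5.16 ± 0.49 in the knockout, a 35.8-fold change (edgeR adjusted p = 7.01e-05), and by 4.51 when CPEB1-KO-LPS replicate 3 was left out.

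Ccl12 (82101845 to 82103400), a further ligand of CCR2, was the most abundant of this block in all 4 groups. It measured 38.5, 58.3 and 55.7 TPM in WT and 453, 680 and 701 TPM in WT-LPS. In the knockout it measured 124, 30.7 and 40.3 TPM without LPS and 583, 430 and 1877 TPM with it. The first CPEB1-KO library and the third CPEB1-KO-LPS library were each more than 3 times as high as any other library of their group, but no untreated library reached a treated one. The rise was 3.23 ± 0.69 (log2, SE) in wild type and 4.10 ± 0.70 in the knockout (edgeR adjusted p = 0.00478 and 0.00351). A single library moved the knockout value: it was 2.90, under that of wild type, when CPEB1-KO-LPS replicate 3 was left out and 5.02 when CPEB1-KO replicate 1 was left out, and it passed in both cases.

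Ccl7 (82045712 to 82047525), which binds CCR2 and also CCR1 and CCR3, was close to the limit of detection without LPS. Its level was 0.85, 0.89 and 0.96 TPM in WT and 0.88, 0.67 and 1.34 TPM in CPEB1-KO, from 2 to 5 counts in a library. With LPS it was 13.1, 12.1 and 15.8 TPM in WT-LPS and 30.9, 30.3 and 86.2 TPM in CPEB1-KO-LPS. Every knockout library with LPS was thus above every wild-type library with LPS. The rise over the untreated group was 3.55 ± 0.65 (log2, SE) in wild type and 5.79 ± 0.60 in the knockout (edgeR adjusted p = 0.00219 and 9.73e-05), the latter 4.89 when CPEB1-KO-LPS replicate 3 was left out. Ccl7 passed the filter on low counts only through the LPS groups.

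Ccl11 (82057823 to 82062955), known as eotaxin and a ligand of CCR3, is best read in counts. It had 1, 2 and 0 counts in the WT libraries and 25, 4 and 15 in WT-LPS, a ratio of scaled counts of 8.30 with an exact 95% counting interval of 2.66 to 41.8. In CPEB1-KO it had 0 counts in all 3 libraries, against 16, 51 and 29 in CPEB1-KO-LPS, which is at least 31.3-fold higher when the untreated group is set at the 3 counts that a count of 0 allows. The untreated and treated libraries did not overlap in either genotype. The rise in wild type missed the threshold (edgeR adjusted p = 0.05003) and passed it in 8 of 20 other settings, DESeq2 among them (adjusted p = 0.0283). The rise in the knockout passed (edgeR adjusted p = 0.00362). This gene, too, passed the filter only through the LPS groups.

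Ccl8 (82115185 to 82116799), the neighbour of Ccl12 and in the mouse a ligand of CCR8, was the 1 member below the filter in the fit. Its counts were 5, 1 and 2 in WT and 5, 3 and 6 in WT-LPS. They were 26, 6 and 1 in CPEB1-KO and 7, 8 and 10 in CPEB1-KO-LPS. The groups overlapped in every comparison, and the first CPEB1-KO library, at 16.7 TPM, was the highest of all 12. With no filter, its change after LPS was 0.11 ± 1.02 (log2, SE) in wild type and -0.46 ± 0.83 in the knockout (edgeR adjusted p = 0.984 and 0.826). At these counts a change of the size seen in Ccl2 or Ccl12 was not detected for Ccl8.

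The second block holds Ccl3, Ccl4 and Ccl5, which attract monocytes and T cells; Ccl3 and Ccl5 bind CCR1. Ccl3 (83647844 to 83649355) measured 71.1, 88.2 and 60.0 TPM in WT and 1731, 2999 and 4137 TPM in WT-LPS. It measured 94.4, 28.3 and 32.9 TPM in CPEB1-KO and 809.7, 1026 and 2594 TPM in CPEB1-KO-LPS. The treated libraries lay far above the untreated ones in both genotypes, and the wild-type and knockout ranges overlapped in both conditions. The rise was 4.95 ± 0.67 (log2, SE) in wild type and 4.98 ± 0.67 in the knockout, that is 30.9-fold and 31.5-fold (edgeR adjusted p = 0.000437 and 0.000764). The knockout value was 4.06 when CPEB1-KO-LPS replicate 3 was left out and 5.78 when CPEB1-KO replicate 1 was left out, so the near-equal folds rest on both libraries.

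Ccl4 (83662584 to 83664683), transcribed from the strand opposite to Ccl3, followed the same course. It measured 36.3, 22.4 and 27.2 TPM in WT and 1023, 1639 and 2086 TPM in WT-LPS. In the knockout it measured 36.6, 11.2 and 13.3 TPM without LPS and 469, 574 and 1801 TPM with it. The treated libraries again lay above all untreated ones, and the genotypes overlapped. The rise was 5.44 ± 0.68 in wild type and 5.73 ± 0.69 in the knockout (log2, SE, edgeR adjusted p = 0.000275 and 0.000303). In the knockout it was 4.61, under that of wild type, when CPEB1-KO-LPS replicate 3 was left out and 6.49 when CPEB1-KO replicate 1 was left out. Ccl3 exceeded Ccl4 in each of the 12 libraries, by 1.44 to 3.94 times on the TPM scale.

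Ccl5 (83525778 to 83530518) attracts T cells and monocytes, among other receptors through CCR1 and CCR3. It measured 47.1, 49.5 and 40.4 TPM in WT and 1319.9, 1389.8 and 1032 TPM in WT-LPS. In CPEB1-KO it measured 43.3, 14.9 and 10.7 TPM, and in CPEB1-KO-LPS 539, 1084 and 1577 TPM. Among the untreated knockout libraries 2 were below all of wild type and 1 was within its range, while the treated libraries of the genotypes overlapped. The rise was 4.41 ± 0.56 in wild type and 5.70 ± 0.59 in the knockout (log2, SE, edgeR adjusted p = 0.000288 and 0.000103). The same omissions gave 5.08 and 6.56 in the knockout.

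Ccl6 and Ccl9, a pair of neighbouring ligands of CCR1 that are known from myeloid cells of rodents, had smaller changes than the other 5 abundant members. Ccl6 (83587882 to 83593087) measured 48.0, 75.3 and 59.3 TPM in WT and 27.4, 31.8 and 19.4 TPM in WT-LPS. In CPEB1-KO it measured 47.0, 31.1 and 34.3 TPM and in CPEB1-KO-LPS 28.3, 13.6 and 53.1 TPM. The wild-type groups did not overlap, the knockout groups did. Ccl6 fell by 1.59 ± 0.48 (log2, SE) in wild type, a 3.02-fold decrease (edgeR adjusted p = 0.0254). The call was lost when WT replicate 2 or 3 or WT-LPS replicate 1 or 3 was left out, with changes of -1.21, -1.66, -1.53 and -1.38 (edgeR adjusted p = 0.113, 0.0506, 0.0686 and 0.0994). In the knockout its change was -0.13 ± 0.47 (edgeR adjusted p = 0.909), or -0.92 when CPEB1-KO-LPS replicate 3 was left out.

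Ccl9 (83572919 to 83578636) varied little in WT, at 20.3, 23.7 and 23.4 TPM, and measured 23.6, 53.4 and 38.3 TPM in WT-LPS. In CPEB1-KO it measured 8.14, 7.51 and 6.54 TPM, and in CPEB1-KO-LPS 13.2, 20.8 and 49.3 TPM. The untreated knockout libraries were the lowest of all and did not overlap with any other group. The change after LPS was 0.43 ± 0.47 in wild type, which did not pass, and 2.03 ± 0.49 in the knockout, which did (log2, SE, edgeR adjusted p = 0.520 and 0.0278). The rise in the knockout was 1.13 without CPEB1-KO-LPS replicate 3, where it no longer passed (edgeR adjusted p = 0.103), and 1.83 with the replicate number as a block (adjusted p = 0.0502). The call was also lost when CPEB1-KO replicate 1, 2 or 3 was left out, with rises of 2.14, 2.02 and 1.94 (edgeR adjusted p = 0.0656, 0.110 and 0.118), and with the 2 groups alone (2.04, adjusted p = 0.0627). It did not pass in 7 of 21 other settings in all.

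The filter on low counts asked for about 10 counts in 3 libraries. It was met in every library by 7 members, all but Ccl7, Ccl8 and Ccl11. In WT-LPS against WT, 5 of these 7 rose (Ccl2, Ccl3, Ccl4, Ccl5 and Ccl12), 1 fell (Ccl6) and Ccl9 did not pass, with a median log2 fold change of 3.92. Of the 15295 genes tested, 12.4% rose and 14.9% fell, and the median was -0.03. In CPEB1-KO-LPS against CPEB1-KO, 6 of the 7 rose and 0 fell, with a median of 4.98, beside 4.1% of all genes that rose, 2.12% that fell and a median of 0.00. The plot of LPS responses gives both fold changes with their intervals.

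**Figure D2:**
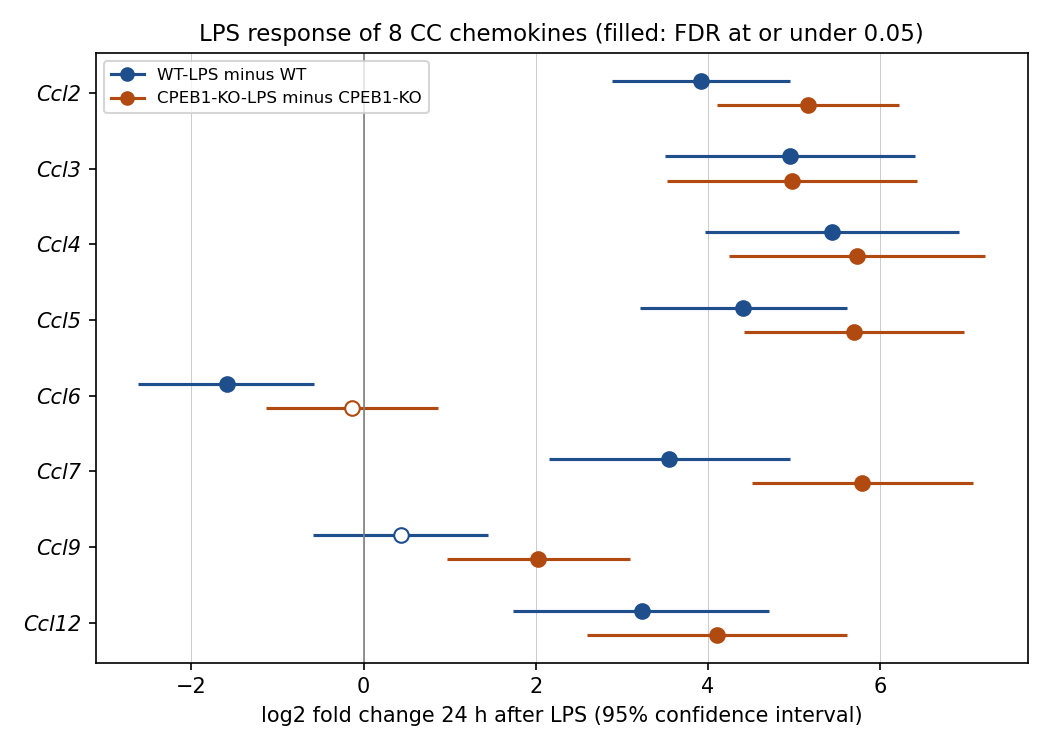
Log2 fold change 24 h after LPS with its 95% confidence interval in wild type and knockout for 8 members, from edgeR; filled points passed an adjusted p of 0.05. Ccl8 was not tested, and Ccl11 is left out because it had 0 counts in all CPEB1-KO libraries. Open points are Ccl6 in the knockout and Ccl9 in wild type, and the other intervals lie on 1 side of 0.

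Markers of other cells moved with the same contrast. The summed level of 7 monocyte markers was 39.1 to 61.2 TPM in WT and 269 to 536 TPM in WT-LPS, and 6 of the 7 rose. In the knockout it was 18.7 to 87.4 TPM without LPS and 111 to 184 TPM with it, and 2 of the 7 rose. None of the 7 was at 0 in all libraries. Of the 10 microglia markers, 6 fell in wild type and 3 in the knockout, and red blood cell markers summed to 41660 to 66990 TPM in untreated and 6544 to 10890 TPM in treated wild type, where all 4 fell. Choroid plexus and ependymal markers fell in wild type (7 of 7) and the knockout (5 of 7). In wild type 5 of 9 endothelial and mural markers rose and 1 fell, and 3 of 4 B cell markers and 5 of 8 border macrophage markers fell; in the knockout none of these passed. Of the other lists, at most 3 members moved 1 way in either genotype. The part of these shifts in the chemokine changes was not tested.

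The genotype comparison without LPS asks whether mice labelled CPEB1 knockout differ at baseline. Among the 7 members counted in every library, Ccl9 differed most: its log2 difference was -1.95 ± 0.49 (SE, 95% interval -3.01 to -0.88), a 3.85-fold lower level, and all 3 knockout libraries were below all 3 wild-type libraries. It did not pass over all genes (adjusted p = 0.146 by edgeR's quasi-likelihood test). It passed with DESeq2 (adjusted p = 0.0110) and without WT replicate 1 (edgeR adjusted p = 0.0377). Ccl5 was at -1.35 ± 0.55 and Ccl6 at -1.07 ± 0.47 (edgeR adjusted p = 0.224 and 0.249), with overlapping libraries for Ccl5 but not for Ccl6. How many of all genes separate in this way was not counted, so the separations of Ccl9 and Ccl6 are description only. Ccl2, Ccl3 and Ccl4 were at -0.65 ± 0.50, -0.84 ± 0.59 and -0.81 ± 0.62, Ccl12 at 0.01 ± 0.66 and Ccl7 at -0.21 ± 0.84. Ccl11, with 3 counts over WT and 0 over CPEB1-KO, had an adjusted p of 0.292 (edgeR). No member passed, against 0.0327% of all genes, while 3 of the 7 members counted in every library had an unadjusted p under 0.05 (2844 of 15295 genes did), 1 passed with DESeq2 (519 of 14992 genes did) and 0 with limma on log2 TPM. WT and CPEB1-KO serve both this contrast and the LPS contrasts, so a low CPEB1-KO value enters both.

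CPEB1-KO replicate 1 was above the mean of its group for 7 of the 9 members tested, with a median deviation of 0.45 on the log2 scale. It also held 50.5 TPM of summed B cell markers (4 genes) against 10.5 and 7.41 TPM in the other libraries of its group. WT replicate 1 held 43.4 TPM. T and NK cell markers summed to 44.9 TPM there against 17.1 and 14.35, and microglia markers to 4230 against 3152 and 2682. Red blood cell and choroid markers were also highest there, and neuron, astrocyte, oligodendrocyte and endothelial markers lowest. The part of these markers' cells in the chemokine values was not tested. Without CPEB1-KO replicate 1, Ccl5 was at -2.20, Ccl9 at -2.05 and Ccl12 at -0.90 relative to WT, and none of them passed (edgeR adjusted p = 0.182, 0.182 and 0.474). Ccl3 and Ccl4 moved to -1.65 and -1.57, which did not pass either.

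After LPS, the difference of Ccl7 between knockout and wild type was 2.02 ± 0.46 on the log2 scale (SE, 95% interval 1.04 to 3.01), a 4.07-fold difference. It did not pass over all genes (adjusted p = 0.361, edgeR's quasi-likelihood test). It passed with DESeq2 (adjusted p = 0.0361). The difference was 1.12 when CPEB1-KO-LPS replicate 3 was left out (edgeR adjusted p = 0.102). The 2 remaining knockout libraries, at 30.9 and 30.3 TPM, were still above the wild-type range of 12.1 to 15.8 TPM. The share of all genes with such a separation was not counted. The other members were between -0.82 ± 0.57 (Ccl3) and 1.12 ± 0.65 (Ccl11), with Ccl2 at 0.59 ± 0.40 and Ccl12 at 0.89 ± 0.61. No member passed with edgeR or limma, against 0.00654% of all genes. Of the 7 members counted in every library, 0 had an unadjusted p under 0.05, beside 1653 of 15295 genes. Ccl7 did, but it met the filter on low counts only through the LPS groups. Ccl2, Ccl6 and Ccl12 turned to -0.07, -0.39 and -0.32 without CPEB1-KO-LPS replicate 3, and Ccl3, Ccl4, Ccl5 and Ccl9 moved to -1.73, -1.65, -0.68 and -1.25, of which none passed.

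The difference of the 2 LPS responses, knockout minus wild type, was tested as an interaction. Its estimate was above 0 for all 7 members counted in every library, and for 53.0% of all genes. The median was 1.24 on the log2 scale against 0.05 over all genes. With limma on log2(TPM + 1), the median over all genes was -0.303. The 7 members varied together within groups, so their shared direction is not 7 separate observations. The estimate changed sign in 10 of 20 other settings for Ccl3, in 6 for Ccl4 and in 1 for Ccl12. Those of Ccl2, Ccl5, Ccl6 and Ccl9 kept theirs. The estimates ranged from 0.03 ± 0.80 for Ccl3 and 0.28 ± 0.83 for Ccl4 to 1.47 ± 0.66 for Ccl6 and 1.60 ± 0.67 for Ccl9 (SE). Ccl7 was at 2.24 ± 1.00. None passed (0.00654% of all genes did), with edgeR adjusted p of 0.310 for Ccl7, 0.286 for Ccl9 and 0.312 for Ccl6, and 0 passed with DESeq2 or limma. Of the 7 members counted in every library, 2 had an unadjusted p under 0.05 (Ccl6 and Ccl9), beside 2365 of 15295 genes. Ccl7 and Ccl11 did too, but they met the filter on low counts only through the LPS groups. The estimates of Ccl3, Ccl4 and Ccl12 were -0.89, -0.84 and -0.34 without CPEB1-KO-LPS replicate 3, and those of Ccl6, Ccl7 and Ccl9 were 0.67, 1.33 and 0.69. The different calls of Ccl6 and Ccl9 in the 2 genotypes are therefore not shown to be different responses.

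**Figure D3:**
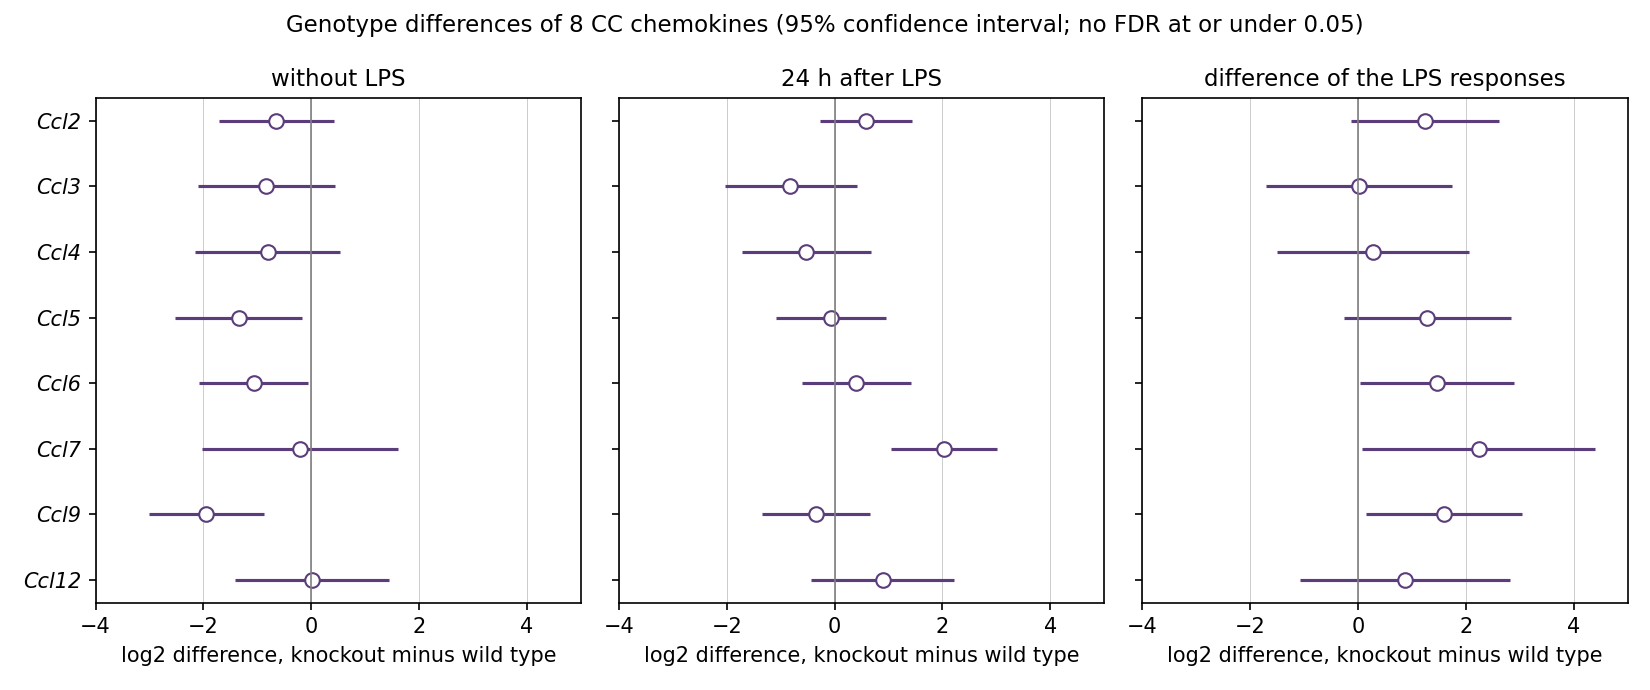
Log2 difference of knockout minus wild type with its 95% confidence interval, without LPS (left), 24 h after LPS (middle) and as the difference of the LPS responses (right), for 8 members. No point passed an adjusted p of 0.05; the intervals of Ccl5, Ccl6 and Ccl9 on the left, Ccl7 in the middle and Ccl6, Ccl7 and Ccl9 on the right lie on 1 side of 0.

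The make-up of the chemokine transcript pool differed between untreated and treated libraries, a description with no test. The 10 genes summed to 274 to 330.1 TPM in WT and 4732 to 8240.0 TPM in WT-LPS, and to 132 to 381 TPM in CPEB1-KO and 2639 to 8419 TPM in CPEB1-KO-LPS. Ccl6 held 20.6 ± 2.90% of this sum in WT and 0.423 ± 0.173% in WT-LPS (SD, n = 3), and Ccl9 7.67 ± 0.748% and 0.576 ± 0.163%. Ccl3 went from 24.8 ± 2.52% to 43.2 ± 6.82% and Ccl4 from 9.93 ± 3.15% to 23.5 ± 1.85%. Shares add up to 100%, so a rise of some members lowers the share of the others.

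After LPS, the shares of some members did not overlap between the genotypes although their levels did. Ccl12 held 8.51 to 9.71% of the sum in the WT-LPS libraries and 12.7 to 22.3% in those of CPEB1-KO-LPS, and Ccl2 held 2.48 to 2.84% and 4.39 to 6.04%. For Ccl3 the share was 36.6 to 50.2% in treated wild type and 30.4 to 30.8% in the treated knockout. For Ccl4 it was 21.6 to 25.3% and 17.0 to 21.4%, a narrow gap. For the rare Ccl8 it was 0.026 to 0.056% and 0.069 to 0.135%, from 3 to 6 and 7 to 10 counts in a library. CPEB1-KO-LPS replicate 3 lay on the knockout side in all of these. The shares of Ccl5, Ccl6, Ccl9 and Ccl11 overlapped between the treated genotypes. The shares of a library have a fixed total, so a lower share of Ccl3 raises others. The listed separations are therefore not separate observations. Such a separation was not limited to LPS. Without it, Ccl12 held 13.9 to 20.35% in WT and 23.15 to 32.6% in CPEB1-KO, and Ccl5 14.8 to 17.0% and 7.24 to 11.4%. The ratio of Ccl2 to Ccl7 was 10.3, 15.8 and 12.97 in WT-LPS and 5.16, 6.27 and 4.29 in CPEB1-KO-LPS. These shares and ratios were looked at after the levels and were not tested. How often shares of so few libraries separate by chance was not worked out.

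**Figure D4:**
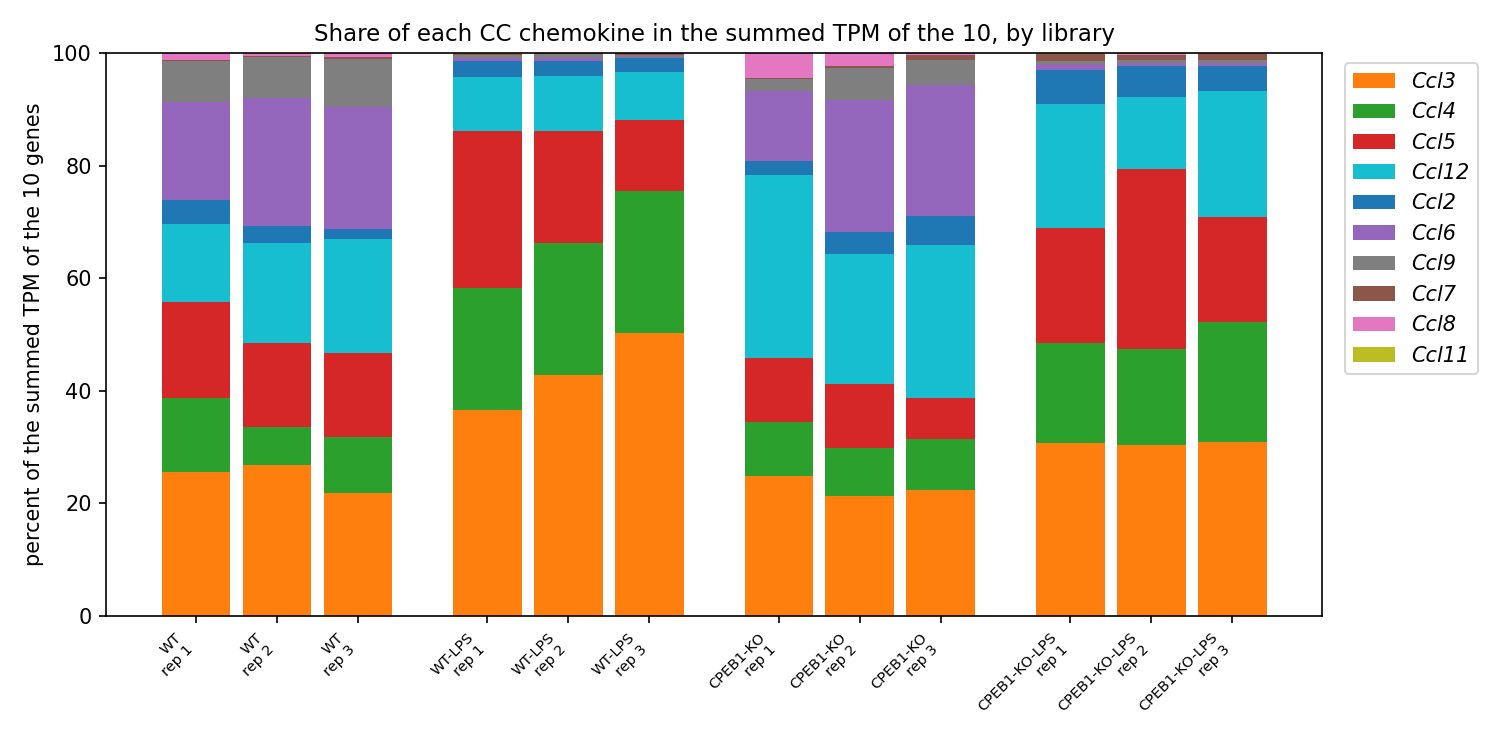
Share of each CC chemokine in the summed TPM of the 10, in percent, 1 bar per library. Ccl6 (purple) and Ccl9 (grey) fill a visible part of the untreated bars and nearly none of the LPS bars. Ccl12 (cyan) is wider in CPEB1-KO-LPS than in WT-LPS, and in CPEB1-KO than in WT.

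Within groups the members varied together. CPEB1-KO-LPS replicate 3 was above its group mean for 9 of 9 members tested, by a median of 1.23 on the log2 scale, and replicates 1 and 2 of that group for 0 and 1 of 9. In WT, replicate 2 was above the mean for 8 of 9, by a median of 0.45. Deviations from the group means over the 12 libraries had Pearson correlations of 0.94 between Ccl3 and Ccl4, 0.93 between Ccl3 and Ccl12 and 0.84 between Ccl6 and Ccl12. The values of a library share its depth and its mix of cells. Those of Ccl11 with the other members were 0.02 to 0.33. Thus Ccl6, whose level goes against that of Ccl3 over all libraries (-0.38), went along with it within groups (0.65).

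Over all 12 libraries the genes outside the family whose log2 CPM was most like that of a member differed between members. For Ccl3 they were Tnf (Pearson's r = 0.99), Irgm1 and Il1a, and for Ccl4 Tnfaip3 (0.99), Il1a and Slfn2. Those of Ccl2 were Cxcl10 (0.98), Gpr84 and Csf3, and those of Ccl7 Cxcl3 (0.99), Gadd45b and Cxcl1. Ccl12 was most like Rtp4 (0.99), Isg15 and Mx1, and within the family it had correlations of 0.96, 0.954 and 0.957 with Ccl2, Ccl3 and Ccl4. Ccl6 was most like Cx3cr1 (0.96), the fractalkine receptor of microglia, then Tnfaip8l2 and Pak4, and Ccl9 most like Rac2 (0.95), Spi1 and Tle3. For Ccl5 they were Bcl3 (0.98), Cebpd and Wfdc17, and for Ccl11 Cyp1b1 (0.93), Xpa and Tm4sf1. These correlations run over 12 libraries that share the LPS contrast. Within groups, that of Ccl3 with Tnf was 0.95 and that of Ccl7 with Cxcl1 0.35.

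Of 10 CC receptors looked up, 4 were abundant enough to test. Ccr2, the receptor of Ccl2, Ccl7 and Ccl12 on blood monocytes, measured 5.33, 1.15 and 2.31 TPM in WT and 2.47, 2.30 and 2.74 TPM in WT-LPS. It measured 6.11, 3.94 and 1.17 TPM in CPEB1-KO and 0.59, 0.32 and 0.80 TPM in CPEB1-KO-LPS. Only the last group stood below all others. Its change was -0.53 ± 0.56 in wild type and -2.68 ± 0.62 in the knockout (log2, SE, edgeR adjusted p = 0.508 and 0.0214), the latter called in 14 of 21 other settings, and the difference of these responses did not pass (adjusted p = 0.258). Ccr1, the receptor of Ccl3, Ccl5, Ccl6 and Ccl9, rose in the knockout by 1.75 ± 0.46 (adjusted p = 0.0394, 13 of 21 other settings), and its change in wild type was 1.24 ± 0.46 (adjusted p = 0.0593).

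Ccr6, a receptor of lymphocytes and dendritic cells whose ligand is Ccl20, had 5, 22 and 8 counts in WT and 0, 1 and 0 in WT-LPS, a 61.9-fold ratio of scaled counts with a counting interval of 10.4 to 2512. It had 47, 42 and 34 counts in CPEB1-KO and 0, 1 and 5 in CPEB1-KO-LPS, and it fell in both genotypes (edgeR adjusted p = 0.00628 and 0.0193), the latter called in 16 of 21 other settings. Ccr6 met the filter on low counts only through the untreated groups, and the falls counted below include it. Ccr7, which guides dendritic cells to lymph nodes, rose in the knockout by 2.46 ± 0.62 (edgeR adjusted p = 0.0330, called in 14 of 21 other settings), and its change in wild type was 1.36 ± 0.61 (adjusted p = 0.109). Over the 4 receptors tested, 0 rose and 1 fell in wild type, and 2 rose and 2 fell in the knockout. Over all genes 12.4% rose and 14.9% fell in wild type, and 4.1% and 2.12% in the knockout. The receptors not tested were Ccr1l1, Ccr3, Ccr4, Ccr8, Ccr9 and Ccr10, each with at most 14 counts in a library. Of 4 atypical receptors, which bind chemokines without G protein signalling, only Ccrl2 passed: it rose by 3.40 ± 0.84 in wild type and 3.26 ± 0.81 in the knockout (edgeR adjusted p = 0.0101 and 0.0322), the latter called in 16 of 21 other settings.

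**Figure D5:**
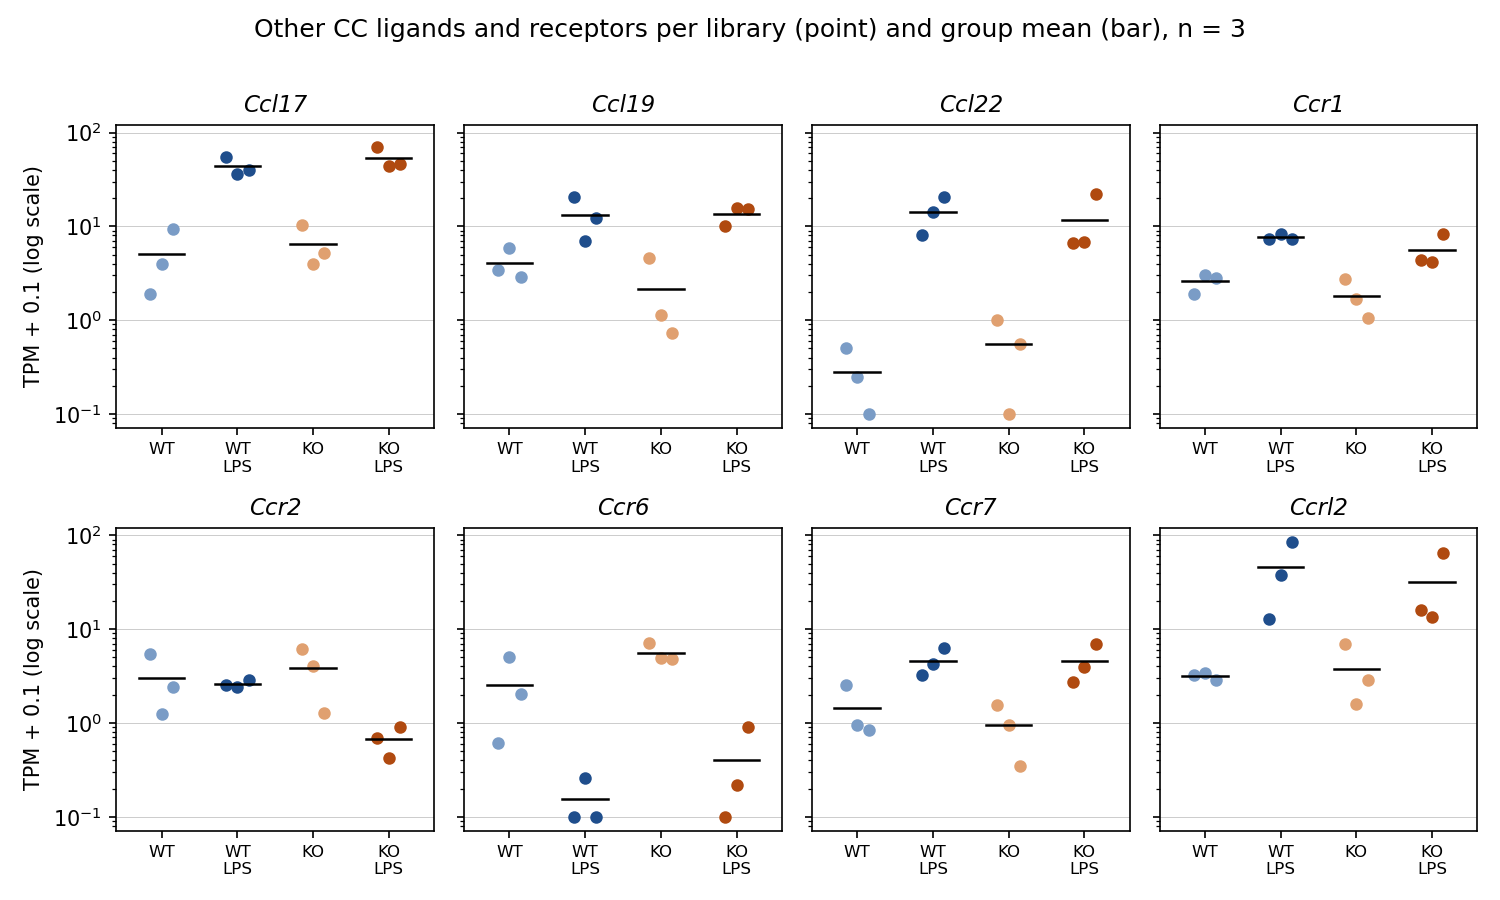
Level in TPM plus 0.1 on a log axis of 3 further CC ligands, 4 receptors and the atypical receptor Ccrl2, 1 point per library and a bar at the group mean. Ccr6 lies lower in the LPS libraries of both genotypes, Ccr2 only in those of the knockout, and Ccl17, Ccl22 and Ccrl2 lie higher in both.

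Outside the 10, 11 of 14 further CC ligands were matched in the tables and 7 were tested. In wild type 2 rose and 2 fell, and in the knockout 3 rose and 0 fell. Ccl17, a ligand of CCR4, went from 1.79, 3.85 and 9.24 TPM in WT to 55.1, 36.4 and 40.0 TPM in WT-LPS, and rose by 2.88 ± 0.54 in wild type and 3.15 ± 0.49 in the knockout (edgeR adjusted p = 0.00242 and 0.00194). Ccl22, the other ligand of CCR4, had 0 to 9 counts in the untreated libraries and 78 to 219 in the treated ones, and rose in both (adjusted p = 0.00182 and 0.00454). Ccl17 and Ccl22 met the filter on low counts only through the LPS groups, and the rises counted above include both. Ccl19, a ligand of CCR7, rose in the knockout by 2.81 ± 0.66 (adjusted p = 0.0227, called in 17 of 21 other settings), with 1.34 ± 0.63 in wild type (adjusted p = 0.129). Ccl20 had 0 counts in all untreated libraries, 33 over WT-LPS and 12 over CPEB1-KO-LPS, at least 6.23-fold and 3.92-fold higher. Ccl27a and Ccl27b fell in wild type by 2.03 ± 0.35 and 2.49 ± 0.56 (adjusted p = 0.00163 and 0.00649). Their expected counts are not whole numbers, since reads were split between similar genes, so their separate values are uncertain, and their changes in the knockout were -0.49 ± 0.34 and -0.45 ± 0.55 (adjusted p = 0.453 and 0.699).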

How the data were processed

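Poly(A) RNA of 12 microglia preparations (4 groups of 3, 1 animal each) had been sequenced. The authors deposited expected counts and TPM per gene; the submitters' processing notes name RSEM, cutadapt and mm10, with no versions. Expected counts were rounded and fitted with edgeR 4.0.16 (R 4.3.3; TMM, filterByExpr with a minimum count of 10 in 3 libraries, 4 group means, quasi-likelihood test, 8 residual degrees of freedom), with Benjamini-Hochberg adjustment over 15295 genes and a threshold of 0.05. TPM gave levels and shares. Where libraries are said not to overlap, the share of all genes with such a separation was not counted. Libraries held 5.02 M to 13.5 M counts. Counting intervals (95%) and the floor of 3 counts cover counting error only. The fit was tested on simulated data. Alternatives were limma 3.58.1 on log2(TPM + 1) and log2(TPM + 0.1), DESeq2 1.42.0, other filters and size factors, a replicate block, each comparison's groups alone, and each library left out. Named genes were the 10 members, Cpeb1, receptors and further ligands called in a comparison, and the 3 genes most correlated with each member (log2 CPM, predicted genes left out); untested receptors and Ccl20 were named after their values were seen. The members and lists were chosen with earlier results of these data known. The labels give replicate numbers only. Same-numbered libraries of WT and WT-LPS deviated together (r 0.149 to 0.378, 3 of 3 pairs over 0.1); in the other comparisons 0, 0 and 2 of 3 pairs did. A further receptor, other than those named in the text, is not reported here.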

Additional observations from a re-analysis of the deposited data

How the results depend on the processing

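The rises of Ccl2, Ccl3, Ccl4, Ccl5, Ccl7 and Ccl12 kept their direction and call in both genotypes under the alternatives run; the genotype differences near 0 did not keep their sign. For CPEB1-KO against WT, DESeq2 called 1 member and leaving out 1 library 0 to 1, against 0. Ccl7 was at 0.03 and 0.04 with limma on log2(TPM + 1) and log2(TPM + 0.1), and -0.51 to 0.03 with 1 library left out. Ccl12 was at -0.02 with RLE size factors, -0.03 with DESeq2, and -0.90 to 0.37 with 1 library left out. For CPEB1-KO-LPS against WT-LPS, DESeq2 called 1 member against 0, and leaving out 1 library gave -0.07 to 0.84 for Ccl2, -0.68 to 0.27 for Ccl5, -0.39 to 0.77 for Ccl6, -1.25 to 0.07 for Ccl9 and -0.32 to 1.27 for Ccl12. Ccl6 in CPEB1-KO-LPS against CPEB1-KO ranged from -0.92 to 0.27. For the difference of LPS responses, Ccl3 was at -0.02 with no filter, -0.08 with the replicate block, -0.42 and -0.41 with limma at both pseudocounts, and -0.89 to 0.83 with 1 library left out. Ccl4 was at -0.32 and -0.28 with limma, and -0.84 to 1.04 with 1 library left out, and Ccl12 ranged from -0.34 to 1.79. Leaving out CPEB1-KO replicate 1 and CPEB1-KO-LPS replicate 3 together, chosen after seeing the data, gave -0.90 for Ccl12 without LPS, -0.07, -0.39 and -0.32 for Ccl2, Ccl6 and Ccl12 with it, and -0.08 for the response differences of Ccl3 and Ccl4. With the replicate block, 7 members rose in the knockout (447 of 15295 genes did), and in the wild-type groups alone, also chosen after seeing the data, 6 rose (1907 of 14657 genes did) and 1 fell; these counts include Ccl7 and, in the knockout, Ccl11, which met the minimum only in LPS libraries. The cause of these shifts was not tested. Over all genes, DESeq2 called 1655 against 952 for LPS in the knockout, 519 against 5 and 90 against 1 between genotypes without and with LPS, and 301 against 1 for the difference of responses; leaving out WT replicate 1 gave 1292 against 5 and 441 against 1 (without LPS and difference of responses), and the 2 wild-type groups alone 2592 against 4185. With limma on log2(TPM + 1), 3380 of 4467 calls in wild type were higher against 1900 of 4185, and the median gene moved by 0.276. In the same setting the median gene was at 0.261 for CPEB1-KO against WT and at -0.303 for the difference of responses, against -0.033 and 0.05 in the main fit.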
